A study of Mus musculus with 160 samples.

Results

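The transcripts of 8 genes were followed through 5 mouse tissues: the class IIa histone deacetylases Hdac4, Hdac5, Hdac7 and Hdac9, and the MEF2 transcription factors Mef2a, Mef2b, Mef2c and Mef2d. They were taken by symbol from the 43432 genes of each deposited table, as the genes of the enzymes that the tested compound inhibits and of the transcription factors that those enzymes bind. An enriched fraction of the total RNA of 2 brain regions (cortex and striatum), 2 striated muscles (tibialis and heart) and liver was sequenced from 32 mice in 4 arms of 8 mice, each of 4 males and 4 females, which gives 160 libraries with 1 library per mouse and tissue. R6/2 mice carried the transgene Tg(HDexon1)62Gpb on C57BL/6J, which holds the first exon of human huntingtin with an expanded CAG repeat behind the human promoter and is used as a model of Huntington's disease. These R6/2 mice received vehicle or CHDI-00390576, a class IIa deacetylase inhibitor, at 30 or 100 mg/kg, and the wild-type (WT) mice, also C57BL/6J, received vehicle. Dosing was oral and 2 times a day in all arms, no WT mouse received the compound, and the labels used here give neither ages nor the length of dosing.

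Class IIa deacetylases have little catalytic activity of their own on acetylated lysine and act mainly as scaffolds: they bind MEF2 proteins on DNA and bring the NCoR and HDAC3 corepressor with them, which keeps MEF2 target genes low. Calcium-activated kinases phosphorylate the deacetylases, 14-3-3 proteins then hold them in the cytoplasm, and MEF2 is free to recruit coactivators. In muscle the circuit sets contractile and metabolic genes and the response to denervation, and in neurons MEF2 factors control activity-dependent genes and synapse number. Control in this circuit lies largely in protein phosphorylation and localisation, which RNA counts do not measure.

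For orientation, 2 promoters are shown, those of Hdac5, a deacetylase called lower in R6/2 striatum, and of Mef2d, the MEF2 factor called in most tissues. Each run is the 250 bases before the RefSeq start site, 5′ to 3′ on the strand of the gene (GRCm38.p6). Capitals mark a MEF2 element or a GC box (GGGCGG or its reverse complement), both searched on both strands. Hdac5 lies on the minus strand (chr11:102230173-102230422) and Mef2d on the plus strand (chr3:88142122-88142371).
Hdac5: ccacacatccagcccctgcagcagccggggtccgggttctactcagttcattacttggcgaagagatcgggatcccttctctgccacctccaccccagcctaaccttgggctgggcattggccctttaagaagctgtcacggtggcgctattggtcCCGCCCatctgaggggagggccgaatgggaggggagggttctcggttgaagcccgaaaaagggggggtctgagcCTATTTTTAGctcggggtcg
Mef2d: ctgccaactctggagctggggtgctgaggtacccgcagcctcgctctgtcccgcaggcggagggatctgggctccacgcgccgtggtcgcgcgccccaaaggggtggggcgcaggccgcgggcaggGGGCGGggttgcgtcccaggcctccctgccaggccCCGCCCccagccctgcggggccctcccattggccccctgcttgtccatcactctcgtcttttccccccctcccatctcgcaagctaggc
The Hdac5 window held 1 MEF2 element, 20 bases before the start, and 1 GC box. The Mef2d window held 2 GC boxes and no MEF2 element, with 73.2% G and C and 19 CpG pairs against medians of 52.4% and 6 over all windows. Among 32851 promoter windows of the same length, 2.92% held a MEF2 element, 32.7% a GC box and 1.55% a cyclic AMP response element (TGACGTCA). All 8 genes had windows, 14 in total, and the Hdac5 window alone of them held a MEF2 element, while none held the cyclic AMP response element.

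Depth was even, with 30.1 to 39 M counts per library. In all, 14 libraries stood apart, 3 of cortex, 4 of striatum, 2 of tibialis, 2 of heart and 3 of liver: the share of their counts on the longest transcripts lay more than 3 scaled median absolute deviations under the tissue median. Of the 4 in striatum, 1 was R6/2 vehicle and 3 were R6/2 at 100 mg/kg. In addition, both brain libraries of 1 WT female went against the labelled sex by their Xist and Ddx3y counts. They were kept below under their label unless stated. The comparisons between tissues and the counts of mice treat them as that animal and were not repeated without them. The tissues matched their labels by marker genes: the 10 striatal projection neuron markers summed to a median of 7602 CPM (counts scaled to library size, TMM factors included) in WT striatum against 594 CPM in WT cortex. Striatum libraries also held counts of cortical excitatory neuron markers, at lower and variable sums that are given below. The 10 fast muscle markers summed to 144438 CPM in WT tibialis, the 10 cardiomyocyte markers to 56536 CPM in WT heart and the 10 hepatocyte markers to 119392 CPM in WT liver.

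The levels of the members in WT mice were compared per transcript length, as FPKM (fragments per kilobase of transcript, scaled to the depth of the library), with the SD over 8 mice. The most abundant member was Mef2c in cortex and tibialis, Mef2d in striatum, Mef2a in heart and Hdac5 in liver, and all 8 were lowest in liver. Mef2c, the factor with the highest level of all 8, averaged 116 ± 12 FPKM in cortex and 103 ± 8.45 FPKM in tibialis. It was far lower in striatum at 34.2 ± 8.72 FPKM, in heart at 9.55 ± 1.62 FPKM and in liver at 0.483 ± 0.059 FPKM. Cortex exceeded tibialis in 6 of 8 mice, with overlapping ranges, whereas each further step down the order held in 8 of 8 mice without overlap.

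Mef2d and Mef2a, the broadly expressed MEF2 factors, varied less between tissues. Mef2d averaged 54.1 ± 4.01 FPKM in cortex, 51.6 ± 2.92 FPKM in striatum, 48.1 ± 4.73 FPKM in tibialis, 31.9 ± 2.37 FPKM in heart and 5.71 ± 0.606 FPKM in liver. The ranges of the first 3 tissues overlapped, and those of tibialis and heart and of heart and liver did not. For Mef2a the order was striatum at 42.1 ± 2.17 FPKM, heart at 37.9 ± 4.87 FPKM, cortex at 33.4 ± 1.36 FPKM, tibialis at 27.2 ± 3.43 FPKM and liver at 6.51 ± 0.617 FPKM. All neighbouring ranges of Mef2a overlapped except those of tibialis and liver.

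Among the deacetylases Hdac5 was the most abundant in every tissue. It averaged 39.7 ± 2.39 FPKM in cortex and 38.7 ± 2.93 FPKM in striatum, which did not separate (cortex higher in 5 of 8 mice), followed by heart at 21.7 ± 3.66 FPKM, tibialis at 14.7 ± 1.83 FPKM and liver at 8.91 ± 3.12 FPKM. Hdac7, known for its role in vascular endothelium and developing thymocytes, was highest in cortex at 15.5 ± 1.53 FPKM and in heart at 13.0 ± 2.81 FPKM, where the ranges overlapped. It fell off through striatum at 8.37 ± 1.22 FPKM, tibialis at 5.44 ± 0.584 FPKM and liver at 2.28 ± 0.369 FPKM. Hdac4, the deacetylase tied to skeletal growth and to the response of muscle to denervation, stood at 9.79 ± 0.804 FPKM in cortex, 6.73 ± 1.47 FPKM in tibialis, 6.23 ± 1.15 FPKM in striatum, 4.08 ± 0.825 FPKM in heart and 1.4 ± 0.165 FPKM in liver. Tibialis and striatum did not separate for Hdac4 (6 of 8 mice). Hdac9, which also encodes a MEF2-binding form without the catalytic domain, was the lowest deacetylase on average in cortex, striatum, tibialis and liver and lay above Hdac4 in heart, with 7.57 ± 0.551 FPKM in cortex, 4.95 ± 0.838 FPKM in heart, 3.41 ± 0.596 FPKM in striatum, 1.67 ± 0.414 FPKM in tibialis and 0.245 ± 0.0657 FPKM in liver.

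**Figure D1:**
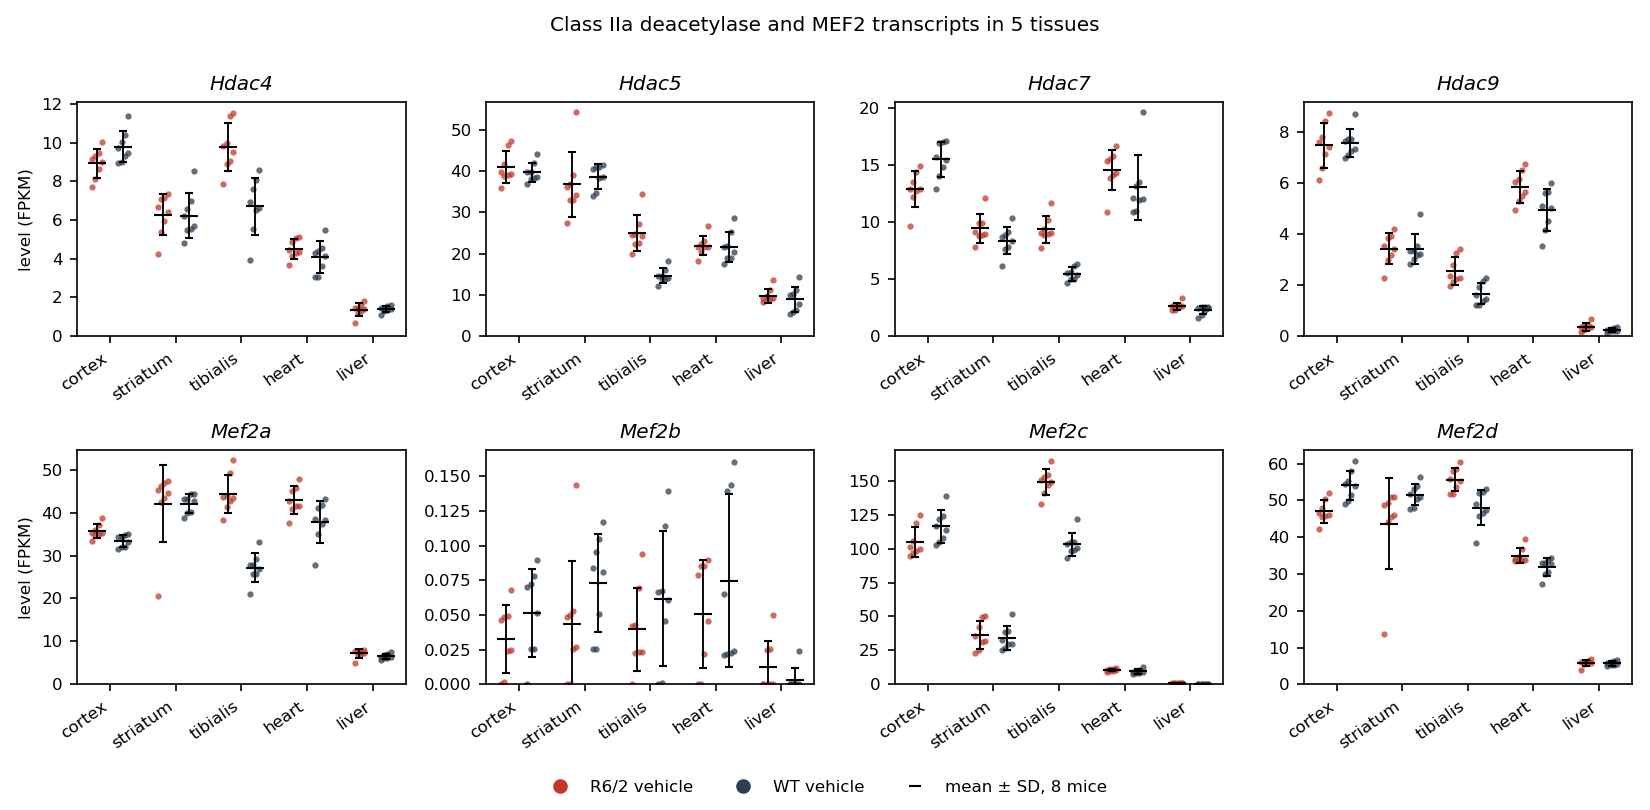
Level in FPKM of each of the 8 genes in R6/2 vehicle mice (left point column of each pair) and WT vehicle mice (right), by tissue, with 1 point per mouse and the mean and SD of 8 mice as bars; vertical scales differ between genes. Mef2c reaches 116 FPKM on average in WT cortex, liver is the lowest tissue for 7 genes with a measurable level, and Mef2b stays near 0 throughout.

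The order between brain and striated muscle depends on the scale. On FPKM, limma with mouse as a block gave Mef2a 0.31 (log2) higher in cortex than in tibialis, Hdac7 0.27 higher in cortex than in heart and Hdac9 0.62 higher in cortex than in heart. With counts scaled by TMM, the trimmed mean of M-values that removes a shift shared by most genes, edgeR's paired fit on the same WT libraries gave the opposite signs, -0.95 for Mef2a, -0.92 for Hdac7 and -0.32 for Hdac9 (87.8% of genes differed between cortex and tibialis and 86.3% between cortex and heart). For Mef2c, cortex minus tibialis was 0.17 on FPKM and -1.21 with TMM. Mitochondrial genes averaged 8.88% of counts in WT cortex, 23.3% in WT tibialis and 31.4% in WT heart. The part of such abundant transcripts in the change of sign was not tested. Liver was the lower tissue of its pair on both scales for the 7 genes tested.

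Mef2b, known mainly from germinal centre B cells, was at or near the detection limit. No library held more than 11 of its counts. Over 8 libraries the counts summed to 14 in R6/2 vehicle against 24 in WT striatum, to 14 against 22.9 in tibialis and to 19 against 27 in heart; in liver they summed to 4 in R6/2 vehicle, 0 in R6/2 at 30 mg/kg, 7 at 100 mg/kg and 1 in WT. The gene overlaps Borcs8 on the same strand of chromosome 8 (GRCm38, Mef2b at 70139711 to 70167488 and Borcs8 at 70139499 to 70147319), so these few counts cannot be assigned with certainty. It passed the filter on low counts in no tissue and was not tested, so 7 of the 8 genes enter the comparisons below.

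The other 7 genes lie apart on the genome (GRCm38): Hdac4 on chromosome 1 (91928779 to 92195699), Hdac5 on 11 (102194432 to 102230166), Hdac7 on 15 (97792664 to 97844502) and Hdac9 on 12 (34047580 to 34917095), all on the minus strand, Mef2a on 7 (67231163 to 67372858, minus), Mef2c on 13 (83504034 to 83667080, plus) and Mef2d on 3 (88142372 to 88172086, plus). The effective length behind each FPKM, recovered as the ratio of count to FPKM, had unlike averages between tissues for some members. These differences, and a change in the mix of transcripts, were not tested. The length also moved in libraries of few long transcripts: for Hdac4, striatum R6/2 vehicle M2 had 8100 bases (others 5940 to 6910). Mef2d averaged 3942 ± 124 bases in WT tibialis against 4444 ± 62 in WT cortex, and Hdac4 5256 ± 485 bases in WT tibialis against 6534 ± 250 in WT cortex. Hdac9 had one length, 4422 bases, on average in every tissue and both vehicle arms. For genotype no member tested passed limma's test on the log2 effective length in any tissue, where 9.56% of genes in cortex, 4.36% in striatum, 5.52% in tibialis, 0.0136% in heart and 0.212% in liver passed. Hdac9, whose length hardly varied, and Mef2b, with too few counts, were left out of this test. Without the libraries of few long transcripts, Mef2d in cortex (-0.04, adjusted p = 0.049) and Mef2c in striatum (-0.03, adjusted p = 0.040) passed.

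R6/2 vehicle mice were compared with WT vehicle mice within each tissue by edgeR's quasi-likelihood test on the deposited expected counts, scaled by TMM, with sex as a covariate and Benjamini-Hochberg adjustment over all genes tested. A gene was called at an adjusted p under 0.05. In cortex 4 of 7 members fell and none rose: Mef2d, Hdac7, Mef2c and Hdac4. Of all genes tested in cortex 53.9% were called, 25.8% lower and 28.1% higher, so a called member there was no rarity. In striatum Hdac5 and Mef2d fell (background 42.4% called, 19.8% lower and 22.6% higher), and in tibialis Mef2d alone was called lower with TMM scaling (45.9% called, 22.2% lower and 23.6% higher), while in heart (14.4% called) and liver (12.8% called) no member was called. In whole tissue, fewer cells that express a gene and less of its RNA per cell cannot be told apart.

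Mef2d was the member called in most tissues. In cortex its level was 193, 201 and 223 CPM (lowest, median and highest) in R6/2 vehicle mice against 232, 254 and 273 CPM in WT mice, so every R6/2 library lay under every WT library. The share of all genes that separate in this way is not given here. Such separation, here and below, is therefore not read as particular to a member. The means were 205 ± 11.2 CPM in R6/2 and 252 ± 15.2 CPM in WT (SD, n = 8 each), a log2 fold change of -0.30 ± 0.04 (standard error; edgeR adjusted p = 8.4e-08). In striatum it was 88.3, 198 and 214 CPM in R6/2 mice against 225, 243 and 254 CPM in WT mice, again without overlap, with -0.37 ± 0.10 (edgeR adjusted p = 0.0034). The lowest value, 88.3 CPM, came from the R6/2 vehicle library with few long transcripts; without such libraries the change was -0.27 (edgeR adjusted p = 1.2e-07). With all libraries it was not called on FPKM (-0.33, limma adjusted p = 0.11) or with total counts (-0.24, edgeR adjusted p = 0.10).

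In tibialis Mef2d stood at 171, 193 and 200 CPM in R6/2 vehicle mice against 231, 266 and 287 CPM in WT mice, with -0.47 ± 0.06 (edgeR adjusted p = 3.8e-08) and no overlap. This direction flips with the scale: on FPKM it was 55.7 ± 3.18 in R6/2 against 48.1 ± 4.73 in WT, a difference of 0.22 on the log2 scale, and with counts scaled by library total it was 0.18. FPKM divided by the TMM factor gave -0.43. The scales differ here because the median change of all genes was 0.03 with TMM, 0.63 on FPKM and 0.68 with total counts, and the TMM factors averaged 1.13 in R6/2 vehicle and 0.720 in WT tibialis. Mef2d thus lay under the bulk of the genes in R6/2 tibialis on each of these scales, while its share of all counts was not lower. Fast muscle markers moved in the same libraries, with a summed level of 29435 to 44273 CPM in R6/2 vehicle against 134052 to 156306 CPM in WT mice. Of them 9 of 10 fell, where 22.2% of all genes were called lower. The part of this in the Mef2d result was not tested.

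**Figure D2:**
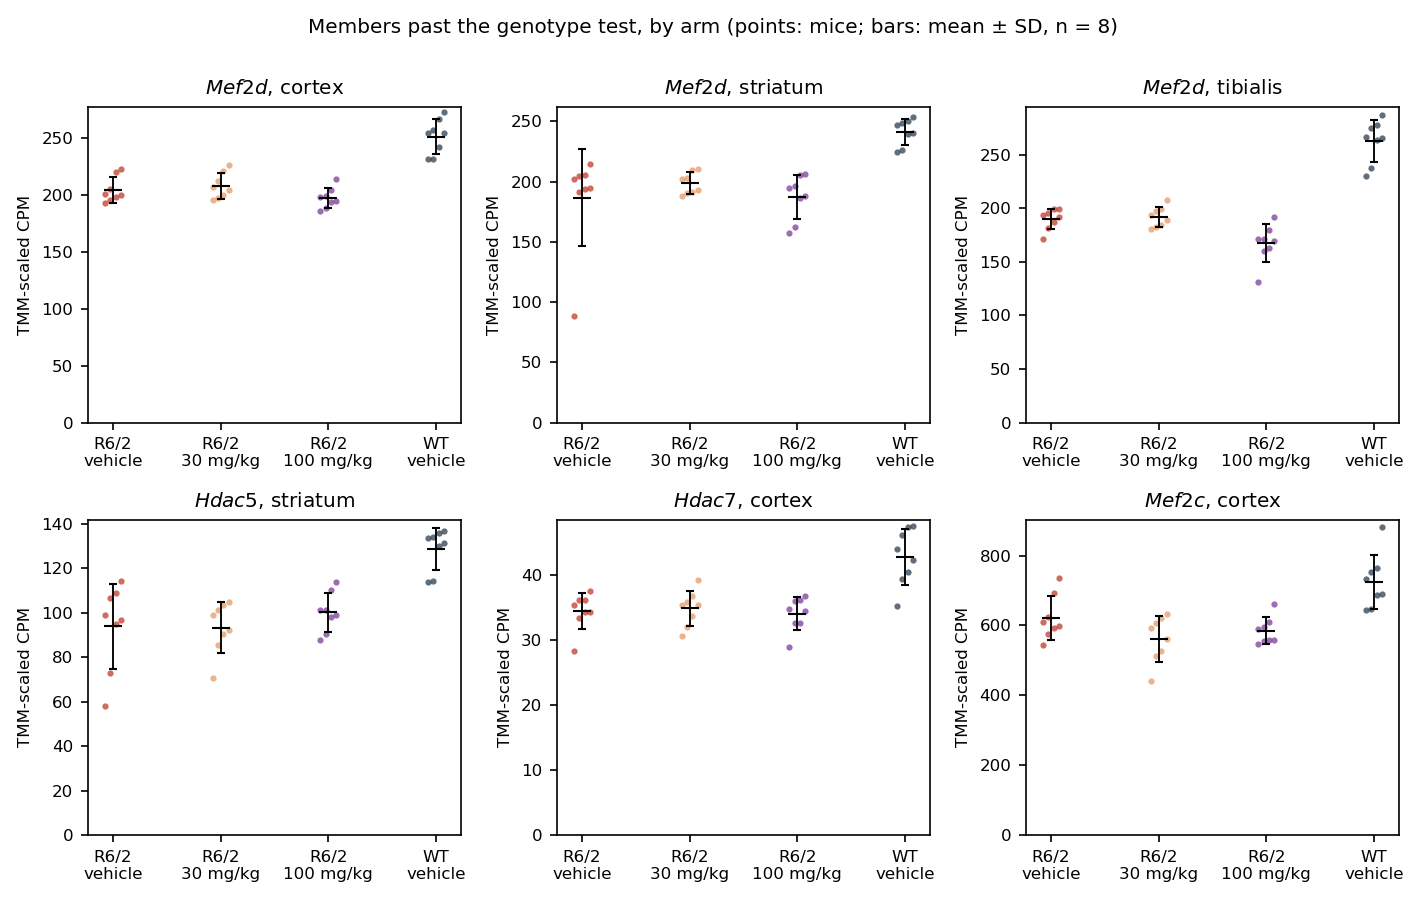
TMM-scaled CPM of Mef2d in cortex, striatum and tibialis, Hdac5 in striatum, and Hdac7 and Mef2c in cortex, with 1 point per mouse and bars for the mean and SD of 8 mice, in R6/2 vehicle, R6/2 at 30 mg/kg, R6/2 at 100 mg/kg and WT vehicle mice. Each R6/2 vehicle library of Mef2d lies under each WT library in the 3 tissues on this scale, and the tibialis direction flips on FPKM (0.22). The share of all genes that separate in this way is not given here.

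Hdac5, a deacetylase with a known part in neuronal activity and stress responses, was lower in R6/2 striatum. Its level was 57.9, 97.7 and 114 CPM in R6/2 vehicle mice against 114, 132 and 137 CPM in WT mice. Of the 8 R6/2 libraries 7 lay under every WT library. The change was -0.46 ± 0.10 (edgeR adjusted p = 0.00037), and -0.38 without the libraries of few long transcripts (edgeR adjusted p = 0.00031). On FPKM it was -0.09 and not called (limma adjusted p = 0.48), with 36.8 ± 7.87 FPKM in R6/2 against 38.7 ± 2.93 FPKM in WT. One R6/2 vehicle library (M2) had a Hdac5 effective length of 874 bases and 54.2 FPKM, where the lengths of WT libraries ran from 2981 to 3283 bases. The TMM factors averaged 1.01 in R6/2 vehicle and 0.933 in WT striatum. The part of either in the FPKM result was not tested. In cortex Hdac5 was not called, at 106, 122 and 143 CPM in R6/2 vehicle against 118, 132 and 145 CPM in WT mice (-0.08, 95% interval -0.21 to 0.05).

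The difference between the regions was itself tested with limma on each mouse's striatum minus cortex log2 CPM. For Hdac5 the genotype effect was more negative in striatum by 0.40 (difference -0.40 ± 0.08, limma adjusted p = 0.0014), where 11.2% of genes differed. Without the libraries of few long transcripts this difference was -0.28 (limma adjusted p = 0.0048). On FPKM it was -0.14 and not called (limma adjusted p = 0.53). Hdac7 went the other way, with a difference of 0.26 ± 0.09 (limma adjusted p = 0.045), and 0.44 on FPKM (limma adjusted p = 0.0074). With the 16 vehicle mice alone, the Hdac7 difference kept its size, 0.26, at a limma adjusted p of 0.090. Between tibialis and heart, where 30% of genes differed, the genotype effect on Mef2d differed by -0.45 ± 0.07 with TMM and by 0.08 on FPKM, where it was not called (limma adjusted p = 0.47).

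Hdac7 in cortex was at 28.3, 34.9 and 37.5 CPM in R6/2 vehicle mice against 35.2, 43.1 and 47.6 CPM in WT mice, a change of -0.31 ± 0.06 (edgeR adjusted p = 2.5e-05). Of the R6/2 libraries 4 lay under every WT library and all 8 under the WT median. In striatum the groups lay on top of each other, at 21.3, 23.8 and 26.7 CPM in R6/2 vehicle against 20.05, 24.7 and 29.3 CPM in WT mice. Endothelial markers summed to 139 to 157 CPM in R6/2 vehicle cortex and 147 to 181 CPM in WT cortex. Of them 3 of 10 fell, close to the 25.8% of all genes called lower. The part of this in the Hdac7 result was not tested.

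Mef2c in cortex, where it marks excitatory neurons and some interneurons, was at 544, 604 and 736 CPM in R6/2 vehicle mice against 644, 712 and 881 CPM in WT mice. The change was -0.23 ± 0.06 (edgeR adjusted p = 0.0030), with 6 of 8 R6/2 libraries under every WT library. Hdac4 was at 54.8, 60.3 and 64.2 CPM in R6/2 vehicle against 60.5, 66.9 and 76.0 CPM in WT cortex, a change of -0.16 ± 0.05 (edgeR adjusted p = 0.0034), with 4 libraries under every WT library. On FPKM both kept their sign but missed the threshold, Mef2c at -0.15 (limma adjusted p = 0.050) and Hdac4 at -0.13 (limma adjusted p = 0.060), while Mef2d at -0.20 and Hdac7 at -0.27 passed. Cortical excitatory neuron markers moved with these members: their sum ran from 2859 to 3272 CPM in R6/2 vehicle against 4626 to 5708 CPM in WT cortex. Of them 7 of 10 fell with a median change of -0.35, where 25.8% of all genes were called lower. Striatal projection neuron markers, all 10 lower, summed to 205 to 312 CPM in R6/2 vehicle against 390 to 1047 CPM in WT cortex. The part of either list in the member results was not tested.

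Members that passed no genotype test in brain had intervals of unlike width. Mef2a, a MEF2 factor of both neurons and muscle, was at 180, 183 and 200 CPM in R6/2 vehicle against 174, 186 and 192 CPM in WT cortex, with a change of 0.02 (95% interval -0.05 to 0.08). For striatum minus cortex its genotype effect differed by -0.16 (95% interval -0.34 to 0.01, limma adjusted p = 0.28). Hdac9 changed by -0.09 in cortex (95% interval -0.23 to 0.04) and by -0.11 in striatum (-0.28 to 0.06). Mef2c in striatum spread too widely to be placed, at 148, 193 and 288 CPM in R6/2 vehicle against 159, 204 and 343 CPM in WT mice (-0.05, 95% interval -0.37 to 0.27).

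In tibialis the TMM-scaled changes of the other members were small. Mef2c, a factor that sarcomere genes depend on, was at 783, 838 and 940 CPM in R6/2 vehicle against 838, 907 and 993 CPM in WT mice (-0.11, edgeR adjusted p = 0.16), and Hdac4 at 41.2, 46.6 and 54.5 CPM against 35.5, 50.1 and 55.1 CPM (-0.05, edgeR adjusted p = 0.67). On FPKM, which carries the shift of all genes of 0.63, all 7 members were called higher in R6/2 tibialis, with Mef2c at 0.53 and Hdac4 at 0.56. The share of all genes called on that scale is not given here, so this count is not read as a result about the members. In heart every member changed by no more than 0.12 in either direction, with Hdac9 at 21.6, 25.5 and 28.5 CPM in R6/2 vehicle against 15.6, 23.9 and 28.0 CPM in WT mice as the largest (0.12, 95% interval -0.13 to 0.37).

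In liver the members are scarce and the intervals wide. Mef2c was at 3.45, 4.09 and 5.30 CPM in R6/2 vehicle against 3, 3.14 and 3.93 CPM in WT mice (0.37, edgeR adjusted p = 0.18), and it passed when these arms were fitted alone (0.35, edgeR adjusted p = 0.044). Hdac9 was at 0.889, 1.51 and 2.92 CPM in R6/2 vehicle against 0.652, 1.18 and 1.60 CPM in WT mice (0.49, 95% interval -0.06 to 1.04). Markers of macrophages and lymphocytes rose in the same livers, 4 of 10 and 5 of 10, where 12.8% of all genes were called in either direction. Lymphocyte sums were 34.0 to 59.0 CPM in R6/2 vehicle against 19.5 to 34.3 CPM in WT mice. The part of these markers in the member values was not tested.

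CHDI-00390576 changed no member past the test at either dose. At 30 mg/kg against R6/2 vehicle the 35 values of 7 members in 5 tissues ran from -0.34 to 0.14, with the smallest edgeR adjusted p at 0.68, and at 100 mg/kg from -0.31 to 0.43, with the smallest at 0.083. Over all genes, at 30 mg/kg 0% were called in every tissue by edgeR, and at 100 mg/kg 0.00571% in cortex, 0% in striatum, 0% in tibialis, 0.0126% in heart and 2.06% in liver. Unadjusted p-values under 0.05 were found by edgeR at 100 mg/kg for 733 genes in cortex, 680 in striatum, 2164 in tibialis, 1267 in heart and 2413 in liver, and at 30 mg/kg for 818, 843, 631, 612 and 1097 genes in the same order. DESeq2 called 15, 0, 6, 60 and 602 genes at 100 mg/kg and 1, 0, 0, 0 and 1 at 30 mg/kg. None of the members was called between the doses, with values from -0.24 to 0.30 and 0.0067% of genes called in liver and 0% in the other tissues.

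The highest value was that of Hdac5 in liver. It was at 20.8, 26.1 and 35.2 CPM in R6/2 vehicle, 23.6, 29.7 and 30.6 CPM at 30 mg/kg and 28.4, 35.5 and 42.4 CPM at 100 mg/kg, beside 18.9, 26.5 and 44.6 CPM in WT mice. At 100 mg/kg 4 of the 8 libraries lay above every R6/2 vehicle library, and all 8 above the vehicle median. The change was 0.43 (95% interval 0.16 to 0.70, edgeR adjusted p = 0.087), and DESeq2 called it (0.43, adjusted p = 0.044). Leaving out 1 WT library (F1) or 1 R6/2 vehicle library (F3) brought it past edgeR's threshold, at adjusted p of 0.039 and 0.048, and without the libraries of few long transcripts it was 0.34 (adjusted p = 0.23).

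Mef2d in liver was at 22.6, 26.5 and 30.0 CPM in R6/2 vehicle, 26.5, 29.4 and 31.6 CPM at 30 mg/kg and 27.2, 29.7 and 37.5 CPM at 100 mg/kg. The change at 100 mg/kg was 0.22 (95% interval 0.08 to 0.37, edgeR adjusted p = 0.083; DESeq2 adjusted p = 0.043). Again all 8 dosed livers lay above the vehicle median and 4 above every vehicle library. Endothelial marker sums in the same livers had a median of 198 CPM in R6/2 vehicle, 197 CPM at 30 mg/kg and 138 CPM at 100 mg/kg; their part was not tested.

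In tibialis the intervals of 3 members lay under 0 at 100 mg/kg before adjustment. Hdac4 was at 41.2, 46.6 and 54.5 CPM in R6/2 vehicle, 40.1, 42.9 and 48.9 CPM at 30 mg/kg and 26.3, 39.6 and 46.1 CPM at 100 mg/kg (-0.29, 95% interval -0.47 to -0.11). Mef2c went through 783, 838 and 940 CPM, 738, 797 and 878 CPM and 553, 760 and 870 CPM in the same order of arms (-0.20, 95% interval -0.34 to -0.07). Mef2d stood at 171, 193 and 200 CPM, 180, 191 and 208 CPM and 131, 171 and 192 CPM (-0.18, 95% interval -0.30 to -0.07). Each had an edgeR adjusted p of 0.30 at 100 mg/kg, and the groups overlapped. One library at 100 mg/kg (M1) was among those of few long transcripts.

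**Figure D3:**
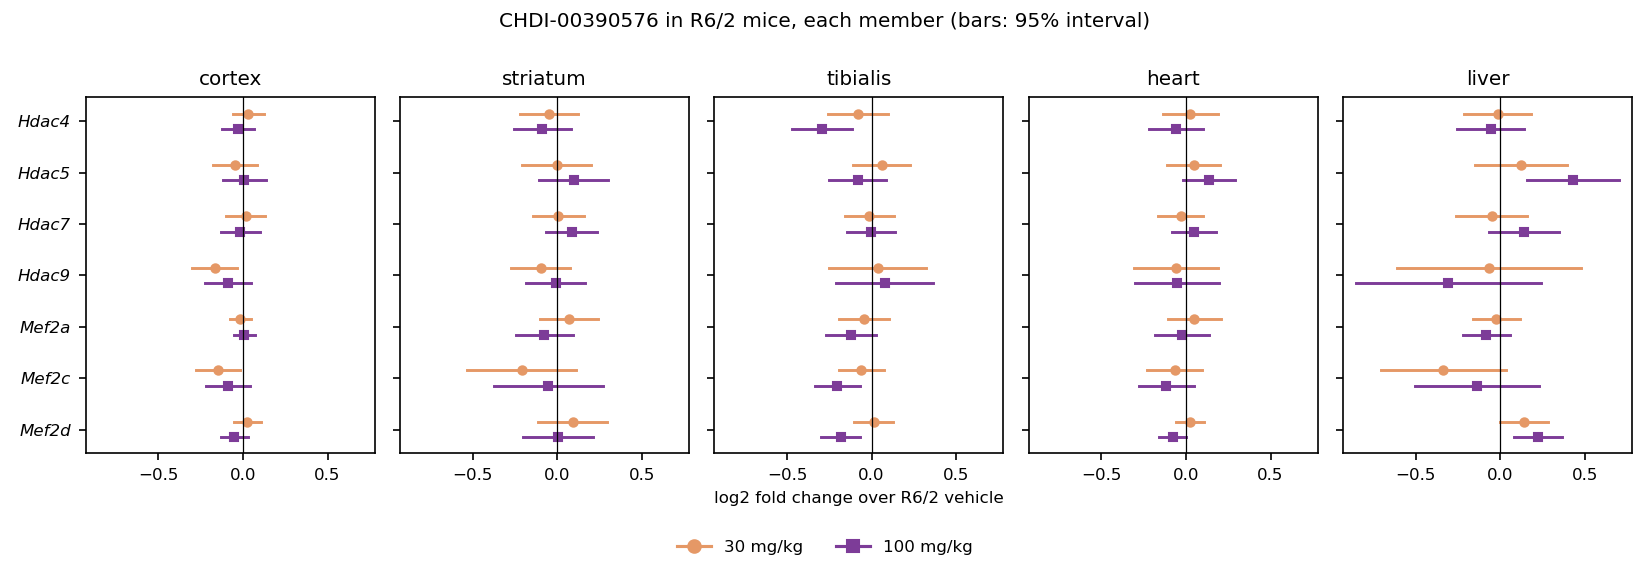
Log2 fold change over R6/2 vehicle at 30 mg/kg (circles) and 100 mg/kg (squares) for 7 members in 5 tissues, with 95% intervals from edgeR. The values run from -0.34 to 0.43; the squares for Hdac5 and Mef2d in liver lie to the right of 0 and those for Hdac4, Mef2c and Mef2d in tibialis to the left, and none is called.

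Set against the same WT mice, the dosed arms repeated much of the list seen in R6/2 vehicle mice; the comparisons share the WT libraries, so their values are given side by side only. In cortex Mef2d was at -0.27 at 30 mg/kg and -0.35 at 100 mg/kg, Mef2c at -0.37 and -0.31, Hdac7 at -0.29 and -0.33, Hdac4 at -0.13 and -0.19, and Hdac9 at -0.26 and -0.18, all called by edgeR (background 53% and 55.9%). With total-count scaling Hdac4 was not called at either dose (-0.03 at 30 mg/kg, edgeR adjusted p = 0.52, and -0.10 at 100 mg/kg, 0.055), nor on FPKM at 30 mg/kg (-0.05, limma adjusted p = 0.51). Hdac9 at 100 mg/kg was not called with total counts (-0.09, edgeR adjusted p = 0.24) or on FPKM (-0.09, limma adjusted p = 0.26). Hdac9 in cortex had 23.6, 30.2 and 32.9 CPM at 30 mg/kg and 27.6, 31 and 32.6 CPM at 100 mg/kg, beside 26.5, 33.1 and 38.5 CPM in R6/2 vehicle and 31.8, 34.7 and 41.3 CPM in WT mice. In striatum Hdac5 was called at -0.46 and -0.36 and Mef2d at -0.28 and -0.37 (38.6% and 43.8%), and Mef2a at 100 mg/kg at -0.21 (edgeR adjusted p = 0.043), a call lost without any 1 of 9 libraries (WT F2, F3, F4, M1, M2 or M4, or 100 mg/kg F1, M1 or M3), with a largest adjusted p of 0.11. Without the libraries of few long transcripts Mef2a was at -0.08 (edgeR adjusted p = 0.10), and on FPKM at -0.09 (limma adjusted p = 0.55). Without the brain libraries whose sex genes went against the label it was at -0.20 and not called (edgeR adjusted p = 0.061). The other edgeR calls of the dosed arms against WT in cortex and striatum held without those libraries. On FPKM the striatal calls were lost except Hdac5 at 30 mg/kg (-0.26, limma adjusted p = 0.044). In tibialis Mef2d was called at -0.46 and -0.65 and Mef2c at -0.18 and -0.32, and Hdac4 at 100 mg/kg at -0.34 (44.7% and 45.5%). The Mef2c call at 30 mg/kg was lost without any 1 of 4 libraries (30 mg/kg M2 or F3, or WT F3 or M4). On FPKM, Mef2c was 0.45 and 0.30 higher in those arms, Mef2d was 0.21 higher at 30 mg/kg and Hdac4 was 0.14 higher at 100 mg/kg (not called, limma adjusted p = 0.37). Mef2d at 100 mg/kg was at -0.03 on FPKM (limma adjusted p = 0.77) and -0.02 with total counts (edgeR adjusted p = 0.71). No member was called in heart (6.94% and 5.3%). In liver (8.84% and 15%) none was called at 30 mg/kg, and Hdac5 at 100 mg/kg was 0.39 higher (edgeR adjusted p = 0.043), a call lost without any 1 of 9 libraries (WT F2, F3, F4, M3 or M4, or 100 mg/kg F2, F4, M3 or M4), with a largest adjusted p of 0.096.

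The genotype effect was compared between males and females. In the test of male minus female effects, 0% of genes were called in cortex and in striatum, 0.0508% in tibialis, 0.00632% in heart and 1.79% in liver, and no member was among them. Mef2d in cortex changed by -0.29 ± 0.05 in males and -0.30 ± 0.05 in females. The level of a member in one sex against the other was not tested, and a lack of calls with 4 mice per sex and arm does not show that the sexes were alike.

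The kinases and 14-3-3 proteins that control class IIa deacetylases come first among the other genes of the circuit, with the lists chosen by gene function. In cortex 5 rose and 12 fell of 23 tested, where 28.1% of all genes were called higher and 25.8% lower, with a median change of -0.16 against 0.02 over all genes. In striatum 5 rose and 10 fell of 23, where 22.6% of all genes were called higher and 19.8% lower (-0.14 against 0.04). Camk4, the nuclear calmodulin kinase, was at 167 ± 24.5 CPM in R6/2 vehicle and 309 ± 28.2 CPM in WT cortex (-0.89 ± 0.08) and at 202 ± 23.9 against 522 ± 38.4 CPM in striatum (-1.37 ± 0.08). Camk1g, a brain form of calmodulin kinase I, fell by 1.54 in cortex and by 1.78 in striatum. Camk2a, the abundant kinase of excitatory synapses, fell by 0.98 in cortex, and Camk2b by 0.30 in cortex and 0.85 in striatum. Camk2a is also in the list of cortical excitatory neuron markers. Mark2, a kinase of the microtubule affinity family that also phosphorylates class IIa deacetylases, fell by 0.59 in striatum. All these edgeR adjusted p-values were at most 2.2e-10.

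In tibialis 5 of 22 rose and 7 fell (23.6% and 22.2% of all genes), with Camk2a at -1.23 and Camk2d, the isoform best known from heart, at 0.60. Prkd3, a protein kinase D, was 0.43 higher, and the 14-3-3 gene Ywhag was at -0.34 with TMM but 0.32 on FPKM. In heart Prkd3 rose (0.27 ± 0.06) and Ywhae was called lower (-0.12 ± 0.04, 0.00 on FPKM) of 23 tested, where 14.4% of all genes were called. In liver Ywhah rose by 0.24 and Prkd3 was at 216 ± 44.9 CPM in R6/2 vehicle against 276 ± 35.4 CPM in WT mice (-0.36) of 20 tested. There 12.8% of all genes were called.

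The 6 genes of the NCoR and HDAC3 complex had a median change of -0.03 in cortex, 0.05 in striatum, -0.06 in tibialis (0.59 on FPKM), 0.06 in heart and 0.05 in liver. In cortex the corepressor Ncor1 rose by 0.19, and Tbl1x, a subunit that binds histones, was at -0.12. In striatum Hdac3, the catalytic subunit, was at 94.7 ± 7.28 CPM in R6/2 vehicle against 86.4 ± 3.87 CPM in WT mice (0.13 ± 0.04, edgeR adjusted p = 0.014), and Tbl1x was at -0.19. In tibialis Gps2, another subunit, was at -0.82 with TMM and -0.12 on FPKM, Tbl1xr1 at 0.43 and Hdac3 at -0.24 with TMM but 0.40 on FPKM. In heart Tbl1xr1 rose by 0.19 (14.4% of all genes called), and in liver none of the 6 was called (12.8% of all genes called).

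Of the cofactors and activators of MEF2, 8 fell and 3 rose of 14 tested in cortex, where 25.8% of all genes were called lower and 28.1% higher. Ppp3ca, a catalytic subunit of the calcium-activated phosphatase calcineurin, was at 874 ± 54.4 CPM in R6/2 vehicle against 1294 ± 61.2 CPM in WT cortex (-0.57 ± 0.04), and the regulatory subunit Ppp3r1 at -0.47. Vgll4, a cofactor best known for binding TEAD factors, was at -0.55 and Mapk14, the p38 kinase that phosphorylates MEF2, at -0.27. In striatum 4 fell and 3 rose of 13 (19.8% and 22.6% of all genes), with Ppp3r1 at -0.72, Ppp3ca at -0.84, Mapk14 at -0.24 and Crebbp, an acetyltransferase that MEF2 recruits, at 0.43. In tibialis, of 15 tested, Crebbp rose by 0.47, while Ppp3cb at -0.68, Carm1 at -0.56 and Ppp3r1 at -0.36 were at -0.02, 0.12 and 0.29 on FPKM. No cofactor was called in heart (14 tested, 14.4% of all genes called). In liver (12.8% of all genes called) Mapk7, the ERK5 kinase that activates MEF2, rose by 0.65.

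Known MEF2 targets of striated muscle were mostly lower. In heart 17 of 27 fell and none rose, where 14.4% of all genes were called (median -0.33 against 0.01 for all genes): the skeletal actin gene Acta1 was at 18.8 ± 10.3 CPM in R6/2 vehicle against 109 ± 54.8 CPM in WT mice (-2.48 ± 0.32), myoglobin (Mb) at -0.44, Fhl2 at -0.38 and the calcium-binding protein gene Hrc at -0.30. In tibialis 18 of 26 fell and 2 rose with TMM (22.2% and 23.6% of all genes), with a median of -0.71 against 0.03, and on FPKM the median was 0.04 against 0.63 over all genes. The glycolytic genes Aldoa at -2.01, Pgam2 at -1.79 and Eno3 at -1.43, and Slc2a4, the insulin-responsive glucose transporter, at -1.21 were also lower on FPKM, at -1.40, -1.13, -0.78 and -0.56. Several of these genes are abundant in the fast fibres or cardiomyocytes whose markers moved in the same libraries. The lists also share genes: Acta1 is a fast muscle marker too, and Nppa, Myl2 and Actc1 are cardiomyocyte markers too. Cardiomyocyte markers summed to 42634 to 51675 CPM in R6/2 vehicle against 52817 to 60315 CPM in WT heart. The part of these markers in the target results was not tested.

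Of 18 neuronal MEF2 targets 8 fell and 4 rose in cortex (25.8% and 28.1% of all genes; median -0.23) and 8 fell and 2 rose in striatum (19.8% and 22.6% of all genes; median -0.55 against 0.04 for all genes). The called share, 12 of 18 in cortex and 10 of 18 in striatum, is to be read against 53.9% and 42.4% of all genes. Arc, an activity-induced synaptic gene, was at 53.1 ± 23.5 CPM in R6/2 vehicle against 182 ± 74.4 CPM in WT cortex (-1.78 ± 0.25) and at -1.19 in striatum. Homer1, a postsynaptic scaffold with an activity-induced form, was at -1.27 in cortex and -1.40 in striatum. Kcna1, a potassium channel gene, was at -0.97 in cortex and -0.61 in striatum. Striatal projection neuron markers moved with these genes in striatum, where 9 of 10 fell, with sums of 2106 to 3165 CPM in R6/2 vehicle against 6164 to 8883 CPM in WT mice; their part was not tested.

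Genes that respond to muscle denervation in the pathway that runs through Hdac4 split in tibialis: 7 of 15 rose and 3 fell, where 23.6% of all genes were called higher and 22.2% lower. The acetylcholine receptor subunit gene Chrna1 was at 82.0 ± 17.5 CPM in R6/2 vehicle against 17.1 ± 2.31 CPM in WT mice (2.24 ± 0.11), and Musk, the kinase that clusters the receptor, at 26.5 ± 3.72 against 5.65 ± 2.29 CPM (2.25 ± 0.22). Runx1, a transcription factor of denervated muscle, rose by 1.8 and Gadd45a, a stress gene that acts after Hdac4, by 0.96. On FPKM these were higher still, at 2.85, 2.92, 2.18 and 1.58. Hdac4 itself was not called there with TMM (-0.05) and was 0.56 higher on FPKM. No gene of these lists was called at 30 or 100 mg/kg in any tissue by edgeR, where unadjusted counts and DESeq2 counts over all genes are as given above.

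Within arms, the level of some members followed the level of cell type markers. Cell numbers were not measured, and the cause of these relations was not tested. Each relation was computed over 32 mice after removing the arm means, and 490 relations of 7 members with marker lists and quality measures were computed, of which 43 had a permutation p, adjusted by Benjamini-Hochberg, under 0.05. Sex was not removed, so a difference between males and females can enter these relations. The ones given here were picked after seeing the values. In striatum Mef2c followed cortical excitatory neuron markers, with Pearson r = 0.89 and Spearman rho = 0.92 (permutation p = 1e-05 for each, the smallest that the resampling can give; adjusted 0.00098 and 0.0016), and r = 0.88 without the 2 mice farthest from the median marker level. It held within each arm, with r = 0.86 in R6/2 vehicle, 0.90 at 30 mg/kg, 0.94 at 100 mg/kg and 0.94 in WT mice. The same Mef2c values ran against striatal projection neuron markers (r = -0.80, rho = -0.74, adjusted permutation p = 0.00098 and 0.0016; -0.74 without 2 mice). Cortical excitatory marker sums in striatum ran from 1200 to 1943 CPM in R6/2 vehicle and from 1951 to 3387 CPM in WT mice.

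In cortex Mef2c also followed cortical excitatory markers (r = 0.70, rho = 0.59, adjusted permutation p = 0.0012 and 0.030; 0.59 without 2 mice). Hdac7 followed endothelial markers in heart (r = 0.73, rho = 0.70, adjusted permutation p = 0.0022 and 0.0024; 0.66 without 2 mice) and in liver (r = 0.74, rho = 0.82, adjusted permutation p = 0.00098 and 0.0016; 0.71 without 2 mice). Mef2c in liver followed them too (r = 0.84, rho = 0.71, adjusted permutation p = 0.00098 and 0.0049; 0.79 without 2 mice), and Hdac9 in liver followed microglia and macrophage markers (r = 0.76, rho = 0.70, adjusted permutation p = 0.0012 and 0.0071; 0.66 without 2 mice). In striatum 2 members instead tracked the share of counts on long transcripts: Mef2a (r = 0.94, rho = 0.82, adjusted permutation p = 0.0012 and 0.0033; 0.88 without 2 mice) and Mef2d (r = 0.87, rho = 0.66, adjusted permutation p = 0.0069 and 0.030; 0.68 without 2 mice).

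**Figure D4:**
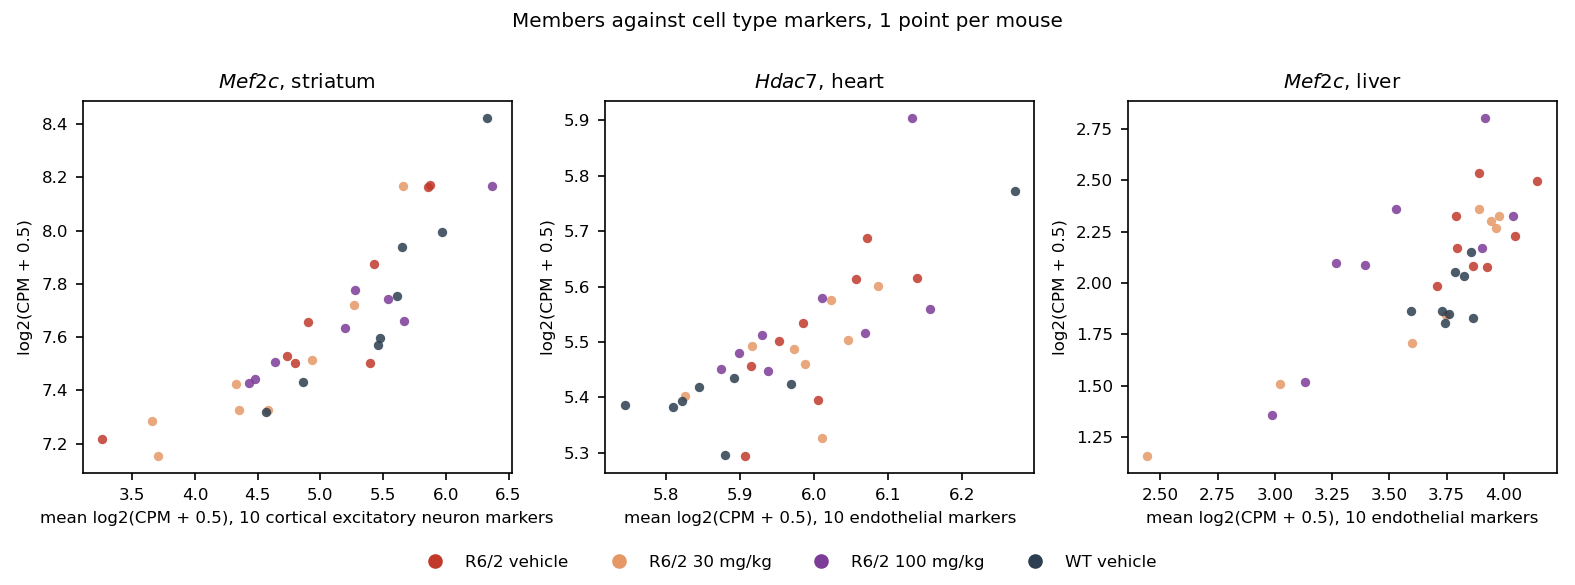
Member level against the mean level of 10 markers, both as log2(CPM + 0.5), with 1 point per mouse colored by arm: Mef2c against cortical excitatory neuron markers in striatum, Hdac7 against endothelial markers in heart and Mef2c against endothelial markers in liver. For Mef2c in striatum the points climb together within each color. After removing arm means r was 0.89, 0.73 and 0.84 in the order of the panels. The highest Hdac7 values in heart, 59.4 CPM at 100 mg/kg (M4) and 54.1 CPM in WT (M4), came from libraries of few long transcripts.

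Over the 20 groups of tissue and arm, the genes most like each member by Pearson r of mean log2(FPKM + 0.1) among 16708 genes were Clec16a, Satb1 and Igdcc4 for Hdac4 (r = 0.993 to 0.989), Ptov1, Tceal1 and Mcrs1 for Hdac5 (0.988 to 0.983), Foxc1, Cyth3 and Plcd3 for Hdac7 (0.990 to 0.988), and Vwa3a, Cyth3 and Foxc1 for Hdac9 (0.993 to 0.990). For the MEF2 factors they were Foxj2, Tmtc1 and Map7d1 for Mef2a (0.998 to 0.992), Camk2g, Satb1 and Setd7 for Mef2c (0.995 to 0.988) and Ppip5k1, Dnajb5 and Cap2 for Mef2d (0.996 to 0.994). Between members r ran from 0.740 for Hdac7 with Mef2c to 0.987 for Hdac7 with Hdac9. The 20 points share mice across tissues and are set mainly by the tissue differences.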

How the data were processed

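The deposited tables hold expected counts and FPKM per gene for 160 libraries. CASAVA 1.8.2 is named, with no role given, per the submitters' processing notes; for the aligner, quantifier, genome build, annotation and use of strand, the sources used here give none. The expected counts are the authors' estimates and need not be whole (68.1% of those above 0 were whole within 1e-06), and the FPKM values are the authors' counts per transcript length and library; no replicates were pooled. Of 43432 genes 42462 received a symbol by Ensembl identifier.

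Counts were rounded, filtered by arm (filterByExpr), scaled by TMM and tested with edgeR 4.0.16 (R 4.3.3) on the 32 libraries of a tissue with arm and sex; sexes were also compared with 8 arm and sex means. Standard errors are the log2 fold change divided by the root of the F statistic. CPM values are TMM-scaled. Tissue pairs used the 40 WT libraries with mouse as a block, and differences between tissues used limma 3.58.1 on per-mouse log2 CPM. Alternatives were DESeq2 1.42.0, other scalings, limma on log2(FPKM + 0.1), which understates changes of low genes, other filters, a replicate block and left-out libraries. The scripts were tested on simulated counts. Permutation p-values of correlations used 100000 resamples within arms (numpy 2.4.6). Intervals are 95%. Each arm holds separate mice, so the spread is between animals.

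The members, gene lists and tests were chosen with earlier results of these data known. All 8 members are named; from each list up to 4 genes with the smallest p among those called for genotype in the tissues the list fits are named, plus the 3 genes most like each member; a few genes that this rule names are not reported here. Total-count scaling, TMM-scaled FPKM, and the marker relations were added after seeing the data.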

Additional observations from a re-analysis of the deposited data

Results flagged for a closer look

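In 18 of 140 groups of 8 mice the highest or lowest value lay far from the others by Dixon's gap rule; chance gives about 1 in 20 groups, and 10 of the 18 were libraries of few long transcripts. The causes were not tested. In striatum the R6/2 vehicle library M2 held 88.3 CPM of Mef2d and 139 CPM of Mef2a, against at least 191 and 214 CPM in the others. At 100 mg/kg M1 had 30.2 CPM of Hdac4 (others 38.3 to 45.1) and F1 had 287 CPM of Mef2c (others at most 219), and at 30 mg/kg M4 also had 287 CPM of Mef2c (others at most 211). WT striatum F4 had 23.2 CPM of Hdac9 (others at most 16.7).

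In heart the 100 mg/kg library M4 had 59.4 CPM of Hdac7, 135 CPM of Mef2a and 42.2 CPM of Mef2c, and WT M4 had 54.1 CPM of Hdac7. In cortex the low values were 28.3 CPM of Hdac7 in R6/2 vehicle F4, 167 CPM of Mef2a at 30 mg/kg in F2 and 27.6 CPM of Hdac9 at 100 mg/kg in F4, while WT F4 was high for Hdac9 at 41.3 CPM. In liver they were Hdac4 at 6.53 CPM in R6/2 vehicle F4 and 6.02 CPM at 100 mg/kg in M4, Hdac5 at 23.6 CPM at 30 mg/kg in F1, while Hdac7 was high at 10.4 CPM in R6/2 vehicle M3.

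The genotype effect differed between tissues by limma's test for Hdac5 (-0.40, striatum minus cortex), Hdac7 (0.26, striatum minus cortex) and Mef2d (-0.45, tibialis minus heart). The last was 0.08 on FPKM, where it was not called. The Hdac5 difference was -0.28 without the libraries of few long transcripts and -0.14 on FPKM, where it was not called.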

How the results depend on the processing

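Of 7207 single values of members under an alternative, 7049 stayed on their side of the threshold, 84 were no longer called, 27 became called and 47 called values turned round. Of the 7049, 5723 were called under neither setting, and 244 of these changed sign.

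Total-count scaling and FPKM, which keep the shift of all genes, moved most. The share of all genes called under each alternative is not given here, so the counts of members below show only how the calls depend on the setting. In tibialis the R6/2 vehicle count changed from 1 member to 7, at 30 mg/kg against WT from 2 to 7, and at 100 mg/kg against WT from 3 to 6 with total counts and 5 on FPKM. Against WT, R6/2 vehicle tibialis then gave Hdac4 0.60 with total counts, 0.56 on FPKM and 0.50 with a pseudocount of 1, Hdac9 0.62, 0.60 and 0.42, Mef2c 0.53, 0.53 and 0.53, and Mef2d 0.18, 0.22 and 0.21. At 30 mg/kg Mef2c gave 0.45 on each and Mef2d 0.17, 0.21 and 0.21, and at 100 mg/kg Hdac4 gave 0.28, 0.14 and 0.12 and Mef2c 0.31, 0.30 and 0.30; FPKM with no filter gave the same values as with it. In striatum the R6/2 vehicle count of 2 became 1 with total counts or TMM-scaled FPKM and 0 on FPKM. At 30 mg/kg against WT it became 1 (0 on FPKM with no filter), also with no filter on counts, and at 100 mg/kg the count of 3 became 0 with total counts; on FPKM it became 1, which was none of the 3 but Hdac7 (0.27 higher), and with TMM-scaled FPKM 1 (Mef2d). In heart total counts gave 1 call in R6/2 vehicle (Mef2d 0.11), and total counts and FPKM gave 1 at 30 mg/kg against WT.

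In liver the R6/2 vehicle count became 1 with the arms fitted alone, and DESeq2 gave 2 at 100 mg/kg against vehicle. At 100 mg/kg against WT the count of 1 became 2 with total counts or FPKM, and 0 with no filter, the arms alone, the replicate block, or without the libraries of few long transcripts. Leaving out 1 library gave 0 to 1 calls in each of these last comparisons, 2 to 4 in striatum and 1 to 3 in tibialis at 30 mg/kg against WT (4 without striatum R6/2 30 mg/kg M4).

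Between WT tissues, FPKM turned round Hdac4 (0.56), Mef2c (0.17) and Mef2a (0.31) for cortex minus tibialis, Hdac9 (0.62) and Hdac7 (0.27) for cortex minus heart, Hdac9 (1.01), Hdac7 (0.61) and Mef2d (0.11) for striatum minus tibialis, and Hdac4 (0.61) and Mef2a (0.16) for striatum minus heart, all between neighbours in the order of levels. Beyond neighbours it also turned round Mef2d for cortex minus tibialis (0.17), cortex minus heart (0.76) and striatum minus heart (0.69), and Mef2a for striatum minus tibialis (0.64). Of the 2 members with tibialis and heart as neighbours, Hdac5 and Mef2d, FPKM called 2 and TMM 1. The genotype effect between striatum and cortex gave 1 call on FPKM (Hdac7) and 1 with 16 mice (Hdac5). Between tibialis and heart FPKM gave 5 calls: Hdac5 0.73, Hdac7 0.59, Mef2a 0.52, Mef2c 0.36 and Hdac9 0.35. Mef2d, called there with TMM, was at 0.0796 on FPKM and not called. Effective length gave 1 call each in cortex and striatum without the libraries of few long transcripts. Beyond the scaling itself, the causes were not tested.

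Replicate numbers did not pair the mice: deviations of same-numbered samples correlated by -0.06 to 0.09 on average per tissue. The replicate block changed no count of called members except liver at 100 mg/kg against WT, from 1 to 0 (Hdac5 0.41, adjusted p = 0.057).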
